A study of Bombus terrestris with 25 samples.

Results

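Proteases and peptidases were examined in the abdomen of buff-tailed bumble bee (Bombus terrestris) queens. A gene was a member when its product name held trypsin, serine protease, cathepsin, carboxypeptidase, aminopeptidase, dipeptidyl, neprilysin or coagulation factor. Names with venom, inhibitor or proteasome were left out, which removed 6 of 39 genes and left 33 members of the 3861 genes in the table. They comprised 8 trypsins and chymotrypsins, 5 other serine proteases, 9 aminopeptidases, 6 carboxypeptidases, 2 dipeptidyl peptidases, 1 cathepsin and 2 genes named for coagulation factors. No neprilysin was in the table (0 genes). The multiple coagulation factor deficiency protein 2 homolog (MCFD2 homolog, LOC100645527) was caught by its name only, since that protein is a cargo receptor of the secretory pathway in mammals and not a protease.

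The study compared 25 mated queens, 1 per library, in 5 groups of 5. Mated queens were 5 to 10 days old, and CO2-treated queens of the same age were sampled 24 h after repeated anaesthesia with pure CO2, which makes queens skip diapause. Diapause queens had spent 9 to 10 weeks at 4 C and were 3 months old by their labels and 2.5 months by the series text. Founders had laid eggs and started a colony, at 1.5 months of age after CO2 (founders post CO2) and at 4 months after diapause (founders post diapause). Outside diapause, food (sucrose and pollen) was unlimited. The queens came from 6 genetic lines, and each group but the mated queens held the same 5. Age, cold and egg laying changed together between most groups and cannot be told apart. The labelled tissue was the abdomen without viscera, with the fat body attached, so the gut should have been removed.

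Digestive proteases cut food protein in stages. Trypsins and chymotrypsins open the chain inside, and carboxypeptidases and aminopeptidases then trim its ends, the latter largely on the membrane of midgut cells in insects. Another branch of the trypsin fold works in the hemolymph: clip-domain and related serine proteases activate one another in cascades that lead, in flies, to Toll signalling and melanisation, and are held back by serpins. The cytosolic and lysosomal peptidases in the set recycle peptides within cells.

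Counts summed per gene were scaled to CPM (counts relative to the library total of the table, after TMM scaling), and a gene was called at an edgeR adjusted p under 0.05 over 3793 tested genes. All 33 members passed the filter on low counts. Library totals ran from 534806 to 4057781 counts. Mated 2 and CO2-treated 3 (numbers are replicates within a group) held 586405 and 534806 counts, and the other libraries at least 2432559. Besides these shallow libraries, Diapause 1 stood apart from the other 4 diapause queens in many members. This held over the table as well: it was the highest of its group in 36.2% of all tested genes and the lowest in 40.6%. Where a value given here changed its call, or its log2 difference by over 1.5 times, without that queen, both values are given. Markers of other tissues were present in every group: the summed level of 12 gut genes (maltases, amylase, lipases, peritrophins) ran from 376 CPM in Founder post CO2 5 to 23923 CPM in Founder post diapause 3, with 0 of the 12 at 0 throughout any group. The summed level of 4 genes of a fat body list ran from 209 to 46217 CPM and that of 3 hemocyte genes from 472 to 6953 CPM. The fat body list also holds vitellogenin receptor-like LOC100649042, a receptor caught by its name. In Founder post CO2 4 that gene had 3666.5 CPM of a list sum of 3739 CPM. In such a mixed tissue, fewer cells of a type and less RNA per cell cannot be told apart.

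The members held between 0.334% (Diapause 4) and 2.33% (Founder post diapause 3) of a library's counts. In diapause, 4 queens lay at 0.334 to 0.395% and Diapause 1 at 0.922%. Mated queens lay at 0.432 to 0.634% and founders post CO2 at 0.980 to 1.39%. CO2-treated queens lay at 0.5645 to 0.6388%, except CO2-treated 2 at 1.342%, within the range of founders post CO2. The range was thus lowest in cold-kept queens, Diapause 1 aside, and widest in founders post diapause, where the lowest queen had 0.7102%. By mean level per kilobase of counted length over the 25 queens, the serine protease snake-like gene (LOC100645388) ranked first with 543 CPM per kb, ahead of chymotrypsin-1-like (LOC100648122) with 424 and cytosol aminopeptidase-like (LOC100643745) with 351. The lowest was the aminopeptidase W07G4.4-like gene (LOC100647083) with 2.89 CPM per kb.

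**Figure D1:**
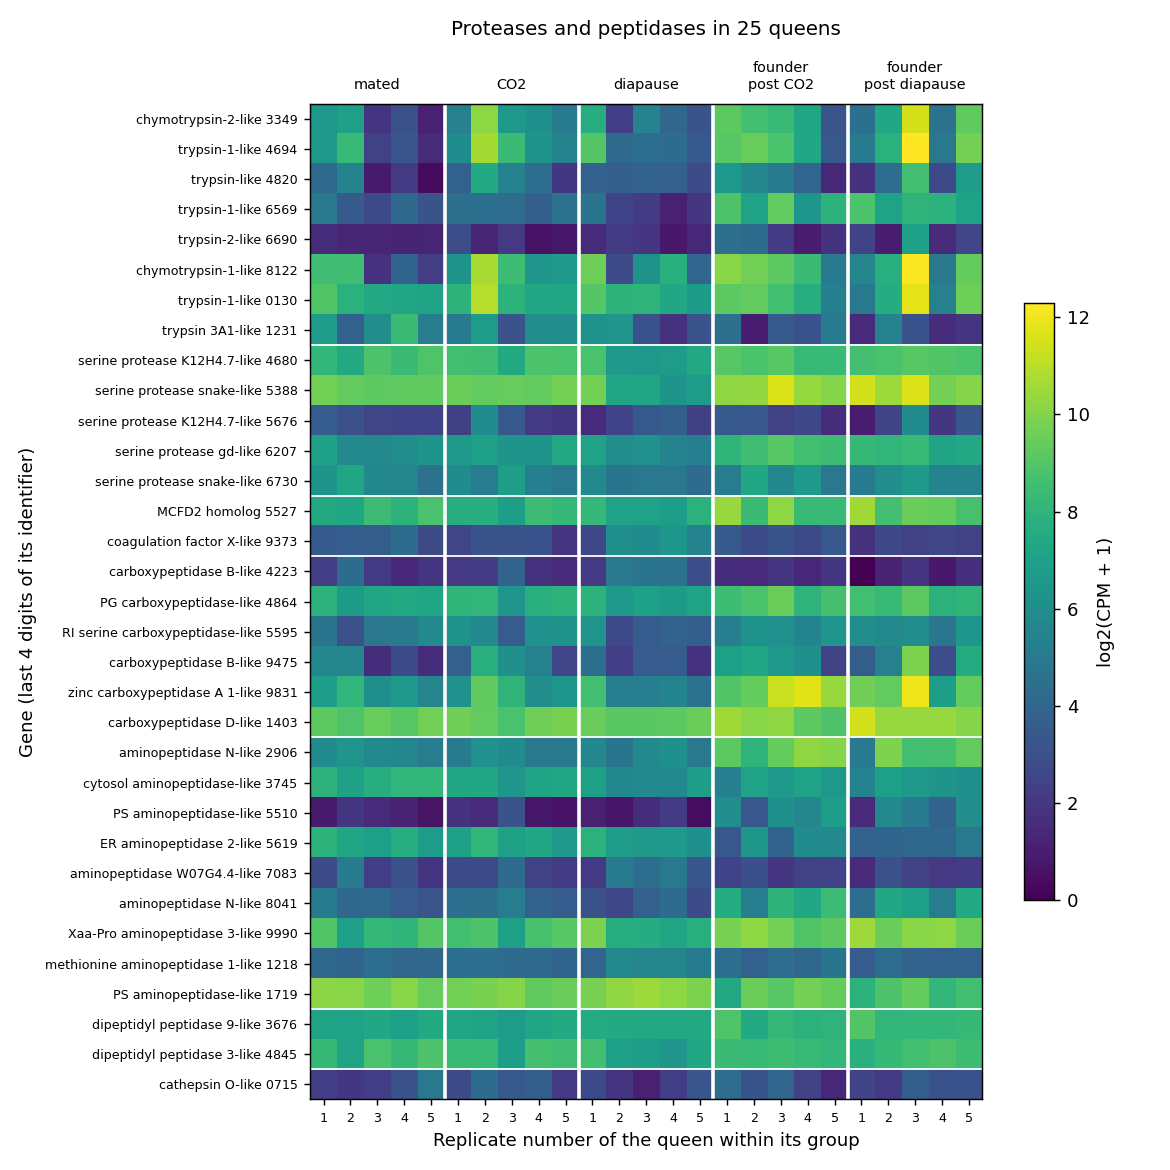
Level of each of the 33 genes (rows, by class) in each of the 25 queens (columns, by group), as log2(CPM + 1) in colour. The digestive-type trypsins and chymotrypsins at the top are bright in single queens such as Founder post diapause 3 and CO2-treated 2, while aminopeptidase N-like LOC100642906 and zinc carboxypeptidase A 1-like LOC100649831 are brighter in most founders than in other queens.

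Most members differed between diapause queens and founders. Between founders post diapause and diapause queens, 19 members were called higher and 6 lower, 25 of 33, where 80.9% of all tested genes were called. The call rate was thus near the background, and the split was not even as it was over all genes: 57.6% of the members were called higher against 40.2% of genes, and 18.2% lower against 40.6%. The members' median log2 difference was 1.35 and that of all genes 0.28. The share called higher rested in part on 1 queen. Without Founder post diapause 3, 20 members were called. Trypsins and chymotrypsins then had 1 call higher in place of 5, and dipeptidyl peptidases 1 in place of 2. The higher counts of the other classes and all lower counts stayed the same. Between founders post CO2 and CO2-treated queens, 9 members were called higher and 1 lower, where 28.3% of genes were called (14.8% higher and 13.6% lower), and the medians were 0.35 for members and 0.07 for all genes. The groups did not overlap in CPM for 10 members in the first comparison (48.7% of genes) and for 7 in the second (16% of genes). Trypsins and chymotrypsins had the highest median of the larger classes after diapause (3.29, 5 of 8 higher, 0 lower), but this rested on 1 queen: without Founder post diapause 3 the median was 0.92, with 1 of 8 called higher, below the 1.25 of carboxypeptidases and 1.26 of the other serine proteases. Aminopeptidases were divided (median 0.03, 4 higher and 4 lower of 9).

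Against mated queens, 17 members were called higher and 6 lower in founders post diapause, where 66.4% of genes were called (30.6% higher and 35.8% lower). In founders post CO2 it was 10 higher and 3 lower, where 39.2% were called (19.5% higher and 19.6% lower). These 2 comparisons share the mated queens, and each also shares its founders with a comparison above. Over all 5 groups, 23 members were called by the F test, where 79% of genes were. The 2 kinds of founder did not differ in a called member. In that comparison 0% of genes were called by edgeR, 2 members had an unadjusted p under 0.05, and DESeq2 called 0 members. CO2-treated and mated queens differed in 0 members by edgeR, where 0.395% of genes were called, with 0 members at an unadjusted p under 0.05 and 0 called by DESeq2.

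The members called higher in founders of both routes included a trypsin and 3 aminopeptidases. Trypsin-1-like LOC100646569, whose family cuts proteins after basic residues, had 29.2, 10.3, 5.56, 15.998 and 8.08 CPM in mated queens, 22.3, 21.3, 20.3, 12.4 and 22.7 in CO2-treated queens and 25.9, 4.51, 3.60, 1.16 and 2.80 in diapause queens, in order of replicate number. Founders post CO2 had 470.2, 136, 642, 87.0 and 245 CPM, and founders post diapause 444, 133, 255, 227 and 139. The lowest founder lay well above the highest queen of any other group, and among diapause queens only Diapause 1 reached the level of mated queens. The log2 difference was 4.95 ± 0.72 (SE, n = 5 and 5) from diapause to founder, with an edgeR adjusted p of 1.25e-05, and 4.00 ± 0.68 from CO2 treatment to founder, with 0.000296.

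Aminopeptidase N-like LOC100642906, of a family of membrane enzymes that release N-terminal residues at the midgut surface, had 60.5, 85.4, 57.1, 49.2 and 35.8 CPM in mated, 32.3, 74.2, 62.5, 29.5 and 29.9 in CO2-treated and 50.4, 26.7, 58.4, 71.7 and 29.8 in diapause queens. Its levels were 582, 254, 679.5, 1214 and 1082 CPM in founders post CO2 and 32.4, 964, 387, 408 and 644 in founders post diapause. Of the 10 founders, 9 lay above all other queens and Founder post diapause 1 lay among the non-founders. It was higher by 4.07 ± 0.60 on the log2 scale after CO2 (edgeR adjusted p = 7e-05) and by 3.36 ± 0.58 after diapause (4.82e-05). The other aminopeptidase N-like gene, LOC100648041, had 8.36 to 31.3 CPM in mated, 11.1 to 35.9 in CO2-treated and 5.21 to 18.99 in diapause queens. Its founders post CO2 had 192, 37.1, 242, 164 and 347 CPM and its founders post diapause 20.7, 161, 125, 34.9 and 184. Founder post diapause 1 was again the lowest founder. The log2 differences were 3.27 ± 0.60 after CO2 (0.000643) and 3.39 ± 0.61 after diapause (6.88e-05), both edgeR adjusted p values.

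A puromycin-sensitive aminopeptidase-like gene, LOC100645510, was close to the limit of detection outside founders. It had 0.834, 2.94, 1.76, 1.23 and 0.577 CPM in mated, 2.51, 1.74, 7.81, 0.744 and 0.494 in CO2-treated and 1.17, 0.695, 2.002, 3.49 and 0.311 in diapause queens. In founders post CO2 the levels were 64.8, 8.98, 70.9, 50.2 and 117 CPM, and in founders post diapause 1.88, 54.9, 32.7, 13.5 and 65.4. Founder post diapause 1 lay within the range of the other groups, and CO2-treated 3, a shallow library, was the highest of the non-founders. The log2 difference was 4.99 ± 0.85 after CO2 (edgeR adjusted p = 0.000277) and 4.46 ± 0.82 after diapause (8.11e-05).

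These 3 aminopeptidases lie near one another. In the RefSeq assembly iyBomTerr1.2, used here for order only, 2 genes separate LOC100642906 from LOC100645510 and 3 separate LOC100645510 from LOC100648041. In the scaffolds of the count table, LOC100645510 spans GroupUn1145 from 2084 to 39801 and encloses the 7 intervals of LOC100648041 on that scaffold, from 26591 to 38198. LOC100642906 lies on GroupUn21 from 66223 to 90613. The sources used here do not give the strand setting, and whether the enclosed genes share reads was not tested.

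Zinc carboxypeptidase A 1-like (LOC100649831), of the family that removes C-terminal residues, was abundant in founders but uneven. Mated queens had 114, 274, 69.4, 93.9 and 47.6 CPM, CO2-treated queens 74.0, 629, 251, 66.7 and 86.0 and diapause queens 387, 38.9, 37.6, 45.4 and 23.9. After CO2, founders had 489, 664, 2451, 3321 and 1362 CPM and founders post diapause 799, 639, 4086, 119 and 674. The ranges overlapped through Diapause 1, CO2-treated 2 and Founder post diapause 4. The log2 difference was 3.57 ± 0.94 after diapause (edgeR adjusted p = 0.00176) and 2.91 ± 0.91 after CO2 (0.0236). Without Founder post diapause 3 the first was 2.36 (adjusted p = 0.0136). The second call was lost without CO2-treated 1, 3, 4 or 5, at adjusted p values of 0.052 to 0.0638.

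Among the serine proteases outside the trypsins, the gd-like gene (LOC100646207) was higher in founders of both routes. It is named for gastrulation defective, a protease near the start of the cascade that sets the back and belly of the fly embryo. Its levels were 129.7, 54.5, 53.9, 64.4 and 81.3 CPM in mated, 97.9, 127, 81.2, 80.4 and 172 in CO2-treated and 137, 67.0, 72.5, 44.6 and 37.6 in diapause queens. Founders post CO2 had 263, 363, 555, 374 and 355 CPM and founders post diapause 304, 275, 323, 145 and 169.7. Founders post CO2 lay above all non-founders, whereas Founder post diapause 4 and 5 overlapped with the CO2-treated queens. The log2 differences were 1.76 ± 0.36 after diapause (edgeR adjusted p = 0.000209) and 1.77 ± 0.36 after CO2 (0.00156).

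**Figure D2:**
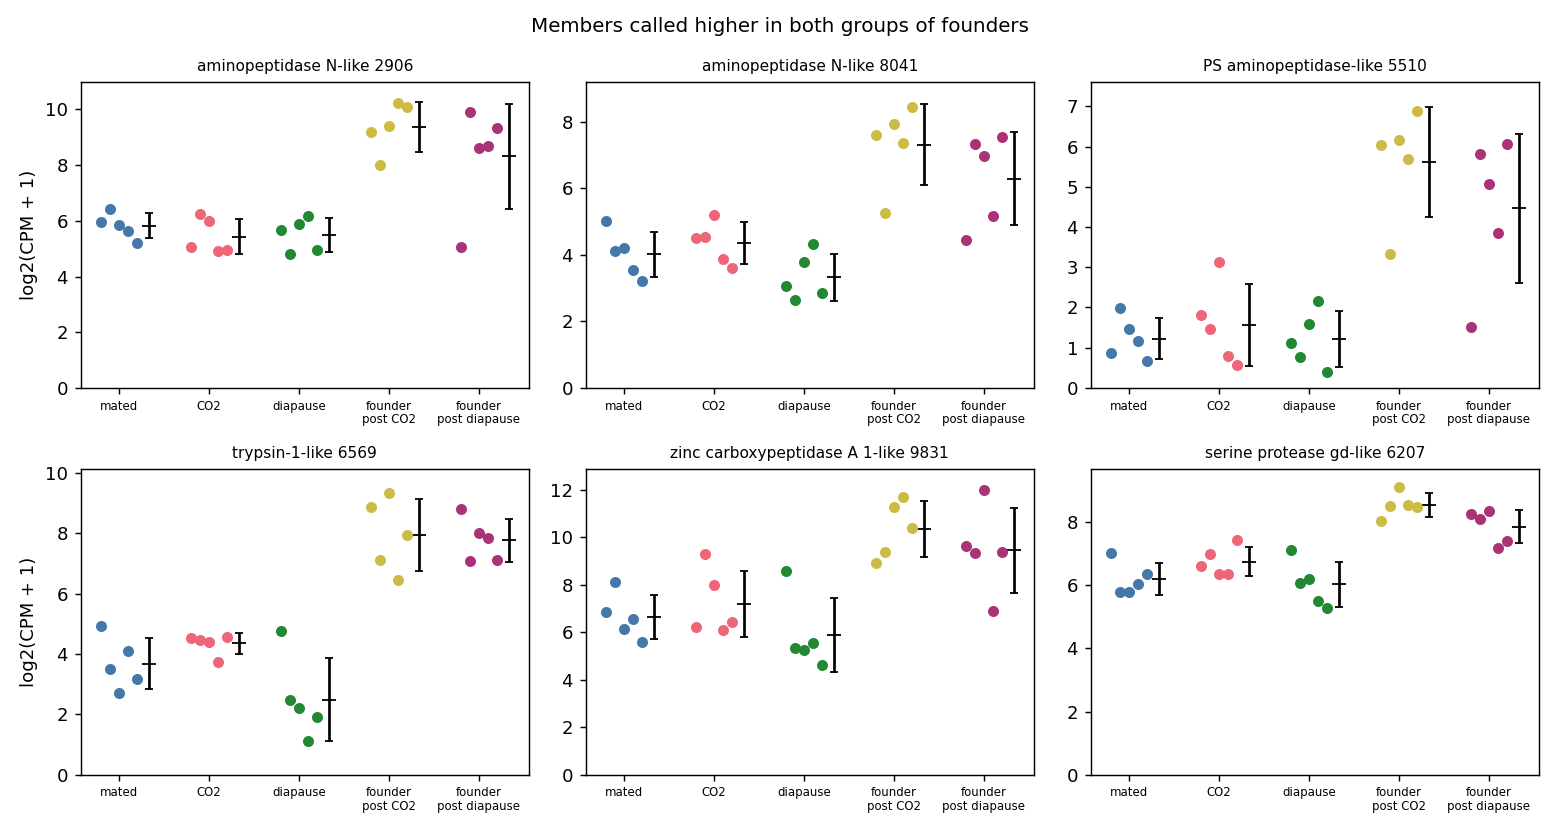
Levels of 6 members called higher in founders by both routes, as log2(CPM + 1) per queen, with 1 point per queen and the mean ± SD of each group beside the points. All 10 founders exceed all other queens for trypsin-1-like LOC100646569, and Founder post diapause 1, the first point of the last group, lies low in the 3 aminopeptidases.

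The digestive-type enzymes varied widely between queens of the same group. Chymotrypsin-1-like (LOC100648122), which cuts after aromatic residues and was the highest trypsin-class gene per kb, had 363, 365, 2.34, 14.8 and 3.75 CPM in mated, 80.9, 1638, 359, 82.9 and 101 in CO2-treated and 768, 5.90, 74.9, 219 and 14.9 in diapause queens. It had 1114, 819, 585, 335 and 31.8 CPM in founders post CO2 and 47.0, 213, 4714, 29.1 and 677 in founders post diapause. The highest mated queen had 156 times the level of the lowest, and the groups overlapped throughout. With all libraries it was called in none of the comparisons: its log2 difference was 2.39 ± 1.45 from diapause to founder, with an edgeR adjusted p of 0.127. Without Diapause 1 this difference was called, at 3.84 (adjusted p = 0.0362), and without Founder post diapause 3 it was 0.13.

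Chymotrypsin-2-like (LOC100643349) and trypsin-1-like LOC100644694 followed the same queens. Chymotrypsin-2-like had 21.1, 161, 2918, 24.2 and 632 CPM in founders post diapause and 199, 3.82, 42.4, 15.9 and 7.77 in diapause queens, a log2 difference of 3.80 ± 1.49 (edgeR adjusted p = 0.0234). Without Founder post diapause 3 the difference was 1.94 (adjusted p = 0.186), and without Diapause 2, 4 or 5 the call was also lost, at 0.0506 to 0.0595. Trypsin-1-like LOC100644694 had 31.96, 233, 5018, 29.1 and 846 CPM in founders post diapause and 509, 18.1, 20.8, 18.6 and 9.32 in diapause queens. Its difference of 3.42 ± 1.55 (edgeR adjusted p = 0.0464) was lost without any of 13 single libraries and with genetic line as a block (adjusted p = 0.144). It was 6.21 (adjusted p = 0.00361) without Diapause 1 and 1.29 (adjusted p = 0.393) without Founder post diapause 3. Trypsin-like LOC100644820 (3.17 ± 1.24, 0.0226) and trypsin-2-like LOC100646690 (3.76 ± 1.09, 0.0037) were called too. Both calls were lost without Founder post diapause 3, at log2 differences of 1.54 (adjusted p = 0.211) and 0.54 (adjusted p = 0.524), and with the block, at adjusted p values of 0.112 and 0.0726. Trypsin-like LOC100644820 was also lost without Diapause 5. Against mated queens, chymotrypsin-2-like, LOC100644694, LOC100644820 and LOC100646690 were called higher in founders post diapause. Each of these calls was lost without Founder post diapause 3, at 0.146 to 0.303. With the block the first 3 were lost, at 0.107 to 0.315, and LOC100646690 had 0.0464. LOC100644694 was also lost without Mated 1, 3, 4 or 5, at 0.0593 to 0.0891. LOC100644820 was lost without Mated 3, 4 or 5, at 0.0606 to 0.0868, and chymotrypsin-2-like without Mated 4, at 0.0643.

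Carboxypeptidase B-like LOC100649475, of the family that removes basic C-terminal residues, completed this set, which was put together after its values were seen. It had 11.3, 40.5, 939, 6.37 and 188 CPM in founders post diapause and 20.7, 3.82, 10.4, 10.9 and 2.48 in diapause queens, a log2 difference of 4.61 ± 1.298 (edgeR adjusted p = 0.00298) that was 2.64 without Founder post diapause 3. Its difference from mated queens (3.51 ± 1.24, 0.0174) became 1.61 (adjusted p = 0.19) without that queen, and the call was also lost without Mated 4, at 0.0541, and with the block, at 0.0836. The change from CO2 treatment to founder was called for none of these 6 digestive-type genes, with log2 differences of -0.45 to 2.03.

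The queens that stood out recurred from gene to gene. Founder post diapause 3 was the highest of its group in 6 of the 8 trypsins and chymotrypsins, against 17.4% of all genes. CO2-treated 2 was the highest of its group in 6 of 8 (14.7% of genes) and Diapause 1 in 6 of 8 (36.2% of genes). The summed level of the 12 gut genes, none of them a protease, was highest in these queens as well. It was 23923 CPM in Founder post diapause 3, 11404 in CO2-treated 2 and 2605 in Diapause 1, against group medians of 3705, 2635 and 978. Gene by gene, 8, 6 and 9 of the 12 were highest in these queens, and the others were not. In CO2-treated 2, alpha-glucosidase-like LOC100643608 had 4.88 CPM, against 504 in CO2-treated 3. In founders post CO2 the gut sum was highest in replicate 2, at 6849 CPM, while replicate 1 was the highest in 4 of the 8 trypsins and chymotrypsins. The part of gut tissue in the levels of these enzymes was not tested.

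**Figure D3:**
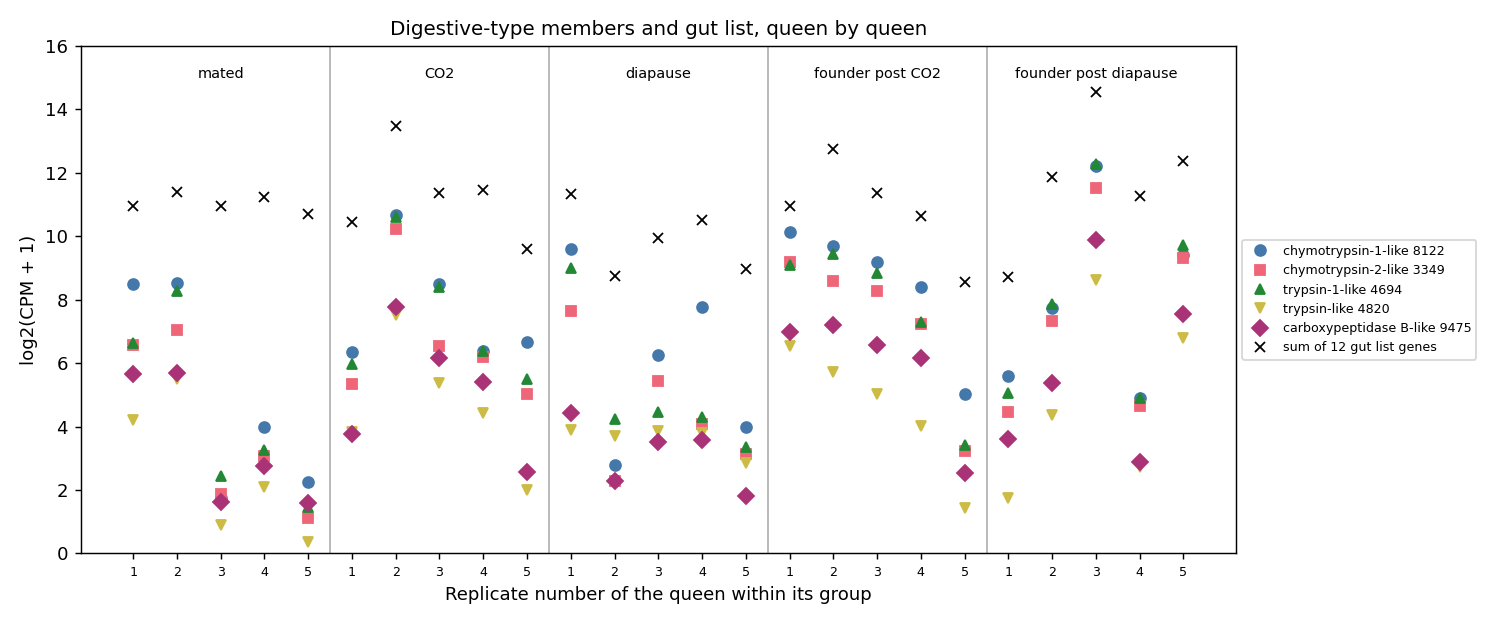
Levels of 5 digestive-type members and the summed level of 12 gut genes in each of the 25 queens, as log2(CPM + 1), by group and replicate number. The queens with the highest gut sum, Founder post diapause 3 with 23923 CPM and CO2-treated 2 with 11404, also have the highest level of each of the 5 members. Trypsin-2-like LOC100646690, not plotted, differs, with 1.39 CPM in CO2-treated 2 and 6.59 in CO2-treated 1.

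The serine protease snake-like gene LOC100645388, named for a fly protease of the cascade that activates Toll, had the highest mean level of the members and was low in 4 of the 5 diapause queens. Mated queens had 808, 657, 614, 635 and 630.4 CPM, CO2-treated queens 750.2, 646, 693, 654 and 835 and diapause queens 832, 150.0, 153, 81.0 and 109. After CO2, founders had 1227, 1271, 3109, 1305 and 1084 CPM and founders post diapause 2838, 1419, 3238, 858 and 1071. Of the diapause queens, 4 lay below all 20 queens of the other groups, and Diapause 1 lay with the mated and CO2-treated queens. The rise from diapause to founder was 2.83 ± 0.54 (edgeR adjusted p = 0.000111), and founders post diapause exceeded mated queens by 1.49 ± 0.51 (0.0145). With Diapause 1 in the fit, the fall in diapause was not called. It was -1.34 against mated queens (edgeR adjusted p = 0.115) and -1.43 against CO2-treated queens (0.084). Without Diapause 1, the log2 difference was -2.50 ± 0.38 against mated queens (edgeR adjusted p = 0.000156) and -2.61 ± 0.38 against CO2-treated queens (7.02e-05).

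The serine protease K12H4.7-like gene LOC100644680, named for a predicted protease of Caenorhabditis elegans, shared that pattern. It had 429, 97.9, 92.9, 112 and 169 CPM in diapause queens, against 178 to 476 in mated, 176 to 463 in CO2-treated queens and 320.1 to 549 and 388 to 545 in founders post CO2 and post diapause. Diapause 2 to 5 were the lowest queens of all groups, and Mated 2 and CO2-treated 3, the shallow libraries, were the next lowest at 178 and 176 CPM. It rose by 1.35 ± 0.38 from diapause to founder (edgeR adjusted p = 0.00293). The other K12H4.7-like gene (LOC100645676, 4.51 to 10.8 CPM in mated queens) and the second snake-like gene (LOC100646730, 23.6 to 147 CPM) were not called in this comparison, at log2 differences of 1.26 ± 0.88 and 0.86 ± 0.50. Without Diapause 1 the second snake-like gene was called, at 1.20 (adjusted p = 0.0495).

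Diapause itself was marked by a small number of genes when all 5 queens were used. Between diapause and mated queens, 2 members were called higher and 1 lower, where 5.69% of genes were called (3.66% higher and 2.03% lower). Between diapause and CO2-treated queens, 2 were called higher and 0 lower, where 6.43% were called (5.64% higher and 0.791% lower). Coagulation factor X-like (LOC100649373), a trypsin-fold gene named for a vertebrate clotting protease, was the clearest of these. It had 5.24, 68.1, 59.2, 88.4 and 43.8 CPM in diapause queens, against 10.0, 11.8, 11.4, 19.3 and 6.34 in mated and 5.02, 8.02, 7.81, 7.44 and 2.72 in CO2-treated queens. Founders post CO2 had 9.85, 5.88, 8.27, 5.63 and 9.30 CPM and founders post diapause 2.35, 5.43, 4.42, 5.10 and 4.16. Diapause 2 to 5 lay above every other queen, and Diapause 1 lay within the range of the other groups.

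Against mated queens, coagulation factor X-like was higher in diapause queens by a log2 difference of 2.17 ± 0.48 (edgeR adjusted p = 0.0084; 0.117 with genetic line as a block), and against CO2-treated queens by 3.12 ± 0.50 (0.00154). From diapause to founder it fell by 3.60 ± 0.51 (1.01e-05). Between CO2-treated queens and founders post CO2 it was not called, at 0.36 ± 0.48 (0.557). The difference between the 2 changes was tested directly and was -3.95 ± 0.69 (0.00717), and this was the only member called for a difference between routes, where 2.43% of genes were called (0.0791% higher and 2.35% lower). Founders post diapause were lower than mated queens, at -1.43 ± 0.49 (0.0143).

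Methionine aminopeptidase 1-like (LOC100651218), which removes the first methionine of new proteins, had 14.9, 56.6, 47.6, 47.3 and 31.7 CPM in diapause queens. Mated queens had 16.7, 14.7, 20.8, 15.6 and 15.9 CPM, CO2-treated queens 21.6, 21.6, 18.7, 17.4 and 14.3, founders post CO2 20.5, 13.0, 20.1, 16.9 and 26.2 and founders post diapause 10.8, 20.1, 14.3, 13.3 and 13.6. As with coagulation factor X-like, Diapause 2 to 5 were the highest queens and Diapause 1 was not set apart. It was higher in diapause by 1.23 ± 0.31 against mated queens (edgeR adjusted p = 0.017) and by 1.08 ± 0.30 against CO2-treated queens (0.0364). The block ended both calls, at 0.148 and 0.0691. The first was lost without Diapause 2, 3 or 4 or Mated 4 or 5, at 0.0525 to 0.0715, and the second without any of 12 single libraries, at 0.0588 to 0.145. It fell from diapause to founder by 1.45 ± 0.30 (0.000283). Of its 4 intervals, 2 had a higher mean in diapause than in mated and CO2-treated queens. The intervals on GroupUn422 and GroupUn1005 had means of 3.26 and 2.68 CPM in diapause and 4.33 and 3.48 in mated queens.

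Carboxypeptidase B-like LOC100644223 and the aminopeptidase W07G4.4-like gene LOC100647083 were highest in Diapause 2 to 4 and in the shallow libraries. The first had 3.20, 29.9, 25.2, 22.9 and 6.52 CPM in diapause queens, 3.75, 19.1, 3.22, 1.64 and 2.60 in mated, 3.14, 3.49, 14.1, 2.48 and 1.73 in CO2-treated queens, 2.05, 1.86, 2.88, 1.64 and 2.82 in founders post CO2 and 0, 1.28, 2.72, 0.765 and 2.22 in founders post diapause. Besides the diapause queens only the shallow libraries, Mated 2 and CO2-treated 3, exceeded 10 CPM. It fell from diapause to founder by 3.57 ± 0.73 (edgeR adjusted p = 0.000225). Its difference of -1.77 ± 0.76 between founders post diapause and mated queens was lost without Mated 2 (-0.95, adjusted p = 0.231) or without Founder post diapause 1, 2 or 4. LOC100647083 had 3.20, 31.6, 20.4, 29.8 and 8.70 CPM in diapause queens, 30.9 in Mated 2 and 18.7 in CO2-treated 3, against at most 7.38 CPM in any other queen. From diapause to founder it fell by 2.20 ± 0.63 (0.00318).

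Cytosol aminopeptidase-like (LOC100643745), of the leucine aminopeptidase family, was the member called lower in diapause. It had 236, 131, 204, 269 and 279 CPM in mated queens and 124, 52.4, 57.2, 56.2 and 118 in diapause queens, and it was the 1 member of 33 whose groups did not overlap here (3.03% of genes). The log2 difference was -1.46 ± 0.35 (edgeR adjusted p = 0.0151), with 0.104 under the block and 0.0548 to 0.0646 without Diapause 2, 3 or 4 or Mated 4. Founders were also lower than mated queens, at -1.43 ± 0.35 after diapause (0.00209) and at -1.16 ± 0.35 after CO2 (0.0138; 0.0621 with the block and 0.0573 without Mated 4).

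**Figure D4:**
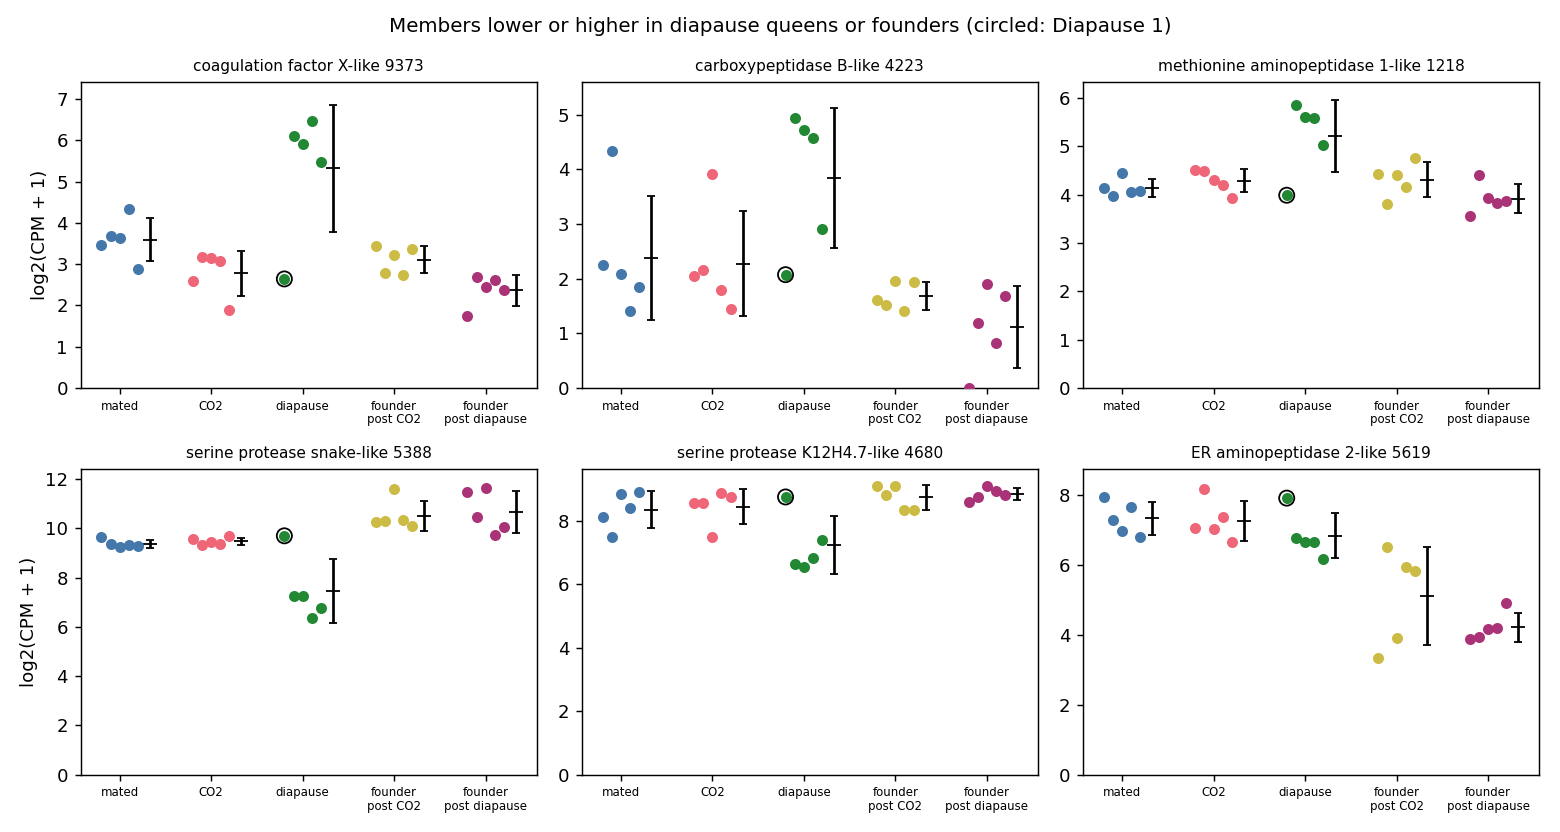
Levels of 6 members that separate diapause queens or founders from other queens, as log2(CPM + 1) per queen, with the mean ± SD of each group beside the points and Diapause 1 circled. For coagulation factor X-like, 4 diapause queens lie at 43.8 to 88.4 CPM and the circled queen at 5.24, and for snake-like LOC100645388 the same 4 queens lie lowest of all.

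Without Diapause 1 the diapause comparisons held more members. Against mated queens, 3 were then called higher and 6 lower, where 24.1% of genes were called (10% higher and 14.1% lower), and against CO2-treated queens 4 higher and 11 lower, where 28.7% were called (13.1% higher and 15.6% lower). Leaving out the 2 shallow libraries too gave 4 higher and 7 lower than mated queens, where 31.5% of genes were called (13.6% higher and 17.9% lower). Against CO2-treated queens it was 4 higher and 12 lower, where 36.5% were called (15.9% higher and 20.6% lower). Beyond those above, trypsin-1-like LOC100646569 (-2.23 ± 0.57, edgeR adjusted p = 0.00776), dipeptidyl peptidase 3-like LOC100644845 (-1.47 ± 0.34, 0.00415) and a retinoid-inducible serine carboxypeptidase-like gene (LOC100645595, -1.56 ± 0.50, 0.0279) were lower than in mated queens without Diapause 1. With all queens these differences were -0.84 (edgeR adjusted p = 0.453), -0.89 (0.164) and -0.24 (0.852) and were not called. The higher ones were coagulation factor X-like (2.42 ± 0.35), carboxypeptidase B-like LOC100644223 (2.01 ± 0.67) and methionine aminopeptidase 1-like (1.39 ± 0.26). With all queens carboxypeptidase B-like LOC100644223 had 1.80 (edgeR adjusted p = 0.117) and was not called.

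The change to founder differed between routes in 9 members without Diapause 1, where 26.5% of genes were called. Without the shallow libraries as well it was 14 members, where 36.6% were called. Without Diapause 1 alone, the difference was 2.81 ± 0.50 for snake-like LOC100645388 (edgeR adjusted p = 0.000943), 1.74 ± 0.41 for K12H4.7-like LOC100644680 (0.00591) and 2.36 ± 0.72 for trypsin-1-like LOC100646569 (0.0208). With all queens the 3 genes had 1.67 (edgeR adjusted p = 0.141), 1.09 (0.182) and 0.95 (0.461) and were not called. For these genes the diapause queens started lower, while founders of the 2 routes had similar ranges. Single libraries also moved the count: leaving out Founder post CO2 1 gave 3 members, and leaving out Founder post CO2 3 or Founder post diapause 2 gave 2.

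The retinoid-inducible serine carboxypeptidase-like gene (LOC100645595), a lysosomal-type peptidase in mammals, and dipeptidyl peptidase 3-like (LOC100644845), a cytosolic enzyme that takes dipeptides from the N-terminus, had the same queens apart. The first had 84.2, 5.56, 10.8, 14.0 and 12.1 CPM in diapause, 78.1, 53.7, 10.9, 74.4 and 79.3 in CO2-treated and 25.4, 7.36, 28.7, 29.9 and 56.2 in mated queens. The second had 395, 125, 116, 85.3 and 163 CPM in diapause, 307, 322, 116, 411 and 365 in CO2-treated and 301, 134, 429, 303 and 466 in mated queens. In both genes Diapause 1 lay with the non-diapausing queens, and Mated 2 and CO2-treated 3 lay with diapause queens 2 to 5. Founders had 279 to 349.6 (post CO2) and 222 to 461 CPM (post diapause) of dipeptidyl peptidase 3-like. Its rise from diapause to founder, 0.96 ± 0.38 (edgeR adjusted p = 0.0253), was lost without any of 7 single libraries, at 0.0535 to 0.0778, and was 1.52 (adjusted p = 0.000475) without Diapause 1. The carboxypeptidase-like gene was not called in that comparison, at 1.22 ± 0.59 (0.0599), but was without Diapause 1, at 2.50 (adjusted p = 0.000203).

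Dipeptidyl peptidase 9-like (LOC100643676), a cytosolic serine peptidase that cuts after proline, was steady in non-founders. It had 121 to 177 CPM in mated, 111 to 185 in CO2-treated and 168 to 188 in diapause queens, 483, 181, 289.9, 236 and 251 in founders post CO2 and 494, 269, 282, 279 and 305 in founders post diapause. All founders but Founder post CO2 2 exceeded every other queen. It rose by 0.88 ± 0.25 after diapause (edgeR adjusted p = 0.00305) and by 0.96 ± 0.25 after CO2 (0.00922).

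The MCFD2 homolog had 173, 150.2, 342, 243 and 437 CPM in mated, 203, 204, 116, 340.3 and 292 in CO2-treated and 295, 133, 134, 115 and 235 in diapause queens. After CO2, founders had 1342, 337, 1162, 320.2 and 314 CPM and founders post diapause 1501, 398, 748, 662 and 424. Founders post diapause lay above all diapause queens, while 3 founders post CO2 lay at the level of the highest CO2-treated queens. The log2 differences were 2.03 ± 0.48 (edgeR adjusted p = 0.000796) and 1.59 ± 0.48 (0.0194), the second lost without CO2-treated 3 or Founder post CO2 1 or 3. Plasma glutamate carboxypeptidase-like (LOC100644864), named for a secreted peptidase of mammals, rose by 1.31 ± 0.36 (0.00222) and 1.05 ± 0.35 (0.0318). The second call was lost without any of 5 single libraries, among them Founder post CO2 3 at 0.147. Its founders had 254 to 750.0 CPM after CO2 and 235 to 583 after diapause, and its CO2-treated and diapause queens 82.8 to 268 and 99.3 to 243.

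Cathepsin O-like (LOC100650715), of the papain family of lysosomal cysteine proteases, was low and was not called in any comparison. It had 3.75, 2.94, 3.81, 7.38 and 29.7 CPM in mated, 5.96, 19.2, 9.37, 12.2 and 3.21 in CO2-treated, 5.83, 2.78, 1.201, 3.88 and 8.39 in diapause queens, 19.7, 8.05, 15.11, 4.46 and 1.69 in founders post CO2 and 4.70, 3.19, 12.3, 7.65 and 7.49 in founders post diapause. Mated 5 was the highest queen, and the ranges of all groups overlapped.

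A smaller group of members was lower in founders. Endoplasmic reticulum aminopeptidase 2-like (LOC100645619), which in humans trims peptides for presentation, had 244, 155, 124, 198 and 109.9 CPM in mated, 131, 284, 128, 163 and 99.8 in CO2-treated and 238, 107, 98.5, 99.6 and 70.8 in diapause queens. Founders post CO2 had 9.03, 89.8, 14.0, 60.1 and 55.5 CPM and founders post diapause 13.6, 14.4, 17.0, 17.1 and 28.8. Every founder post diapause lay below every queen of the 3 other stages, and founders post CO2 were spread over a wider range that did not overlap with CO2-treated queens. It fell by 2.75 ± 0.49 after diapause (edgeR adjusted p = 7.11e-05) and by 1.82 ± 0.47 after CO2 (0.00935; 0.0548 without CO2-treated 2).

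Puromycin-sensitive aminopeptidase-like LOC100651719, a cytosolic peptidase in mammals and the highest aminopeptidase by CPM, had 1138, 1089.6, 774, 1117 and 688 CPM in mated, 807, 896, 1051, 621 and 726 in CO2-treated and 884, 1221, 1458, 1178 and 925 in diapause queens. It had 169, 749, 548, 845 and 672 CPM in founders post CO2 and 239, 461, 679, 283 and 381 in founders post diapause. The last group lay below all diapause queens, whereas founders post CO2 overlapped with CO2-treated queens. It fell by 1.47 ± 0.35 after diapause (edgeR adjusted p = 0.000835), and its difference after CO2 was -0.46 ± 0.35 (0.288). Thus the 2 genes named puromycin-sensitive aminopeptidase-like changed in opposite directions after diapause.

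Trypsin 3A1-like (LOC100651231) had 112, 13.3, 67.4, 338 and 34.6 CPM in mated, 32.002, 112, 7.81, 66.7 and 65.2 in CO2-treated and 75.2, 84.4, 7.61, 2.33 and 7.77 in diapause queens. Founders had 22.2, 0.929, 10.1, 7.51 and 32.7 CPM after CO2 and 1.88, 43.4, 7.49, 2.04 and 2.77 after diapause. By its gene sum it was lower in founders than in mated queens, at -3.29 ± 1.06 (edgeR adjusted p = 0.0108) and -2.95 ± 1.05 (0.0303). Both calls were lost without Mated 4, at 0.0618 and 0.143, and the second also without Founder post CO2 1, 2, 3 or 4.

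Some of these genes lie side by side, and their levels differed. On scaffold Group13.3, trypsin-like LOC100644820 (1317204 to 1319300), trypsin-1-like LOC100644694 (1319680 to 1322178) and carboxypeptidase B-like LOC100644223 (1322230 to 1328095) follow each other with gaps of 379 and 51 bases. The trypsin-like pair was highest in Founder post diapause 3, at 390.0 and 5018 CPM, where the carboxypeptidase had 2.72. In Diapause 2 the carboxypeptidase had 29.9 CPM and the pair 12.2 and 18.1. On GroupUn732, trypsin-2-like LOC100646690 (1363906 to 1367517), trypsin-1-like LOC100646569 (1369840 to 1377565) and trypsin 3A1-like LOC100651231 (1397181 to 1398879) lie in a row with no other gene of the table between them. In the RefSeq assembly 0 genes lie between the first pair and 2 between the second. The middle gene was high in all founders, at 87.0 to 642 and 133 to 444 CPM. The first exceeded 10 CPM only in Founder post diapause 3, at 130.3 CPM, and Founder post CO2 1 and 2, at 22.6 and 19.5 CPM, and the third was lower in founders than in mated queens. The positions are those of the count table, for which the sources used here name no genome build. Near-identical copies could share reads, so the split between neighbouring trypsins is uncertain.

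Intervals of called members mostly had the direction of their gene sum. The sum is made of these same intervals, so part of this agreement is built in. Of 146 intervals with at least 20 counts in the 25 members called between founders post diapause and diapause queens, 131 had the direction of their gene, and in 20 of the 25 members every interval did. After CO2 it was 71 of 72 intervals. The share over all called genes was not computed. A fit on single intervals, added after the data were seen, called 122 of 158 member intervals after diapause, where 74.2% of all intervals were called. This fit scaled the libraries anew, and its median over all intervals was -0.59, against 0.28 over genes. For the intervals given below, its log2 differences lie above the ratios of the CPM printed with them. Rises thus read larger and falls smaller than in CPM.

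Carboxypeptidase D-like (LOC100651403), a membrane enzyme of the late secretory pathway, had 719, 563, 568, 581 and 749 CPM in diapause queens and 2775, 1328, 1341, 1329 and 1062 in founders post diapause, and its sum rose by 1.301 ± 0.33 (edgeR adjusted p = 0.00124). Its longest interval, 3296 bases at the low end of the gene's span on Group6.3 (4244217 to 4247512), had 423, 288, 307, 292 and 401 CPM in diapause queens and 2643, 917, 1129, 1061 and 803 in founders post diapause. The other 9 intervals together had 295.7, 275, 261, 289 and 347 and 132, 411, 212, 268 and 259 CPM. The longest interval separated the groups and the rest overlapped. In the interval fit the longest was called (2.58 ± 0.51, edgeR adjusted p = 0.000272) and 0 of the other 9 were, at 0.30 to 0.51. By mean CPM, 1 of the 10 intervals was higher in founders post diapause than in diapause queens. The other 9 together had means of 256 and 294 CPM in these groups.

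Xaa-Pro aminopeptidase 3-like (LOC100649990), named for an enzyme that frees a residue before proline, showed the same split. Its interval of 3437 bases had 817, 74.0, 64.8, 63.6 and 73.6 CPM in diapause queens and 1347, 610.5, 1025, 1065 and 656 in founders post diapause. Its other interval, of 2537 bases, had 105, 129.9, 129.7, 89.5 and 143 and 113, 97.0, 88.1, 119.8 and 88.7 CPM. The first placed Diapause 1 with the founders, and the second did not separate the groups. The gene sum rose by 1.62 ± 0.48 (edgeR adjusted p = 0.0043), and by 2.45 (adjusted p = 3.11e-05) without Diapause 1. In puromycin-sensitive aminopeptidase-like LOC100651719 the interval of 6802 bases fell in the interval fit (-1.05 ± 0.35, edgeR adjusted p = 0.0096). Of its 3 short intervals, 1 was called higher (1.10 ± 0.37, 0.0114). The long interval had a mean of 1083 CPM in diapause queens and 345 in founders post diapause. The 3 short intervals together had means of 50.5 and 63.2 CPM.

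Intervals of 3 members lay on several scaffolds, and some pieces differed in level or direction. Trypsin-1-like LOC100650130 had intervals on 5, with 81.9% of its counts on Group15.5 and 16.2% on Group10.4, the scaffold with its longest interval. Those on Group15.5 had 16.9, 165, 3552, 25.9995 and 719 CPM in founders post diapause and 454, 14.2, 100.5, 53.9 and 19.6 in diapause queens, with the same high queens as in the digestive-type trypsins, and the interval there with the most counts, of 2013 bases, was called higher in the interval fit (3.18 ± 1.35, edgeR adjusted p = 0.037). The interval on Group10.4 (2111101 to 2117171) had 163, 41.2, 132, 114 and 107 CPM in mated, 190.8, 159, 71.8, 82.4 and 89.7 in CO2-treated and 77.8, 217, 135, 85.7 and 68.6 in diapause queens. It had 11.9, 28.8, 6.83, 14.1 and 15.8 CPM in founders post CO2 and 9.40, 25.5, 7.49, 12.2 and 32.4 in founders post diapause, and no founder reached the lowest other queen. Counted alone, the Group10.4 interval fell by 2.73 from diapause to founder (edgeR adjusted p = 5.58e-05), while the gene sum had 1.81 ± 0.97 (0.0886).

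Aminopeptidase N-like LOC100648041 was carried by its 7 intervals on GroupUn1145, with 1.17, 1.74, 6.81, 10.5 and 1.86 CPM in diapause queens and 4.70, 141.4, 106, 27.3 and 171 in founders post diapause. Its interval on Group3.2 had 2.78 to 7.36 and 7.39 to 18.7 CPM and was called higher too, by less (2.13 ± 0.39, edgeR adjusted p = 0.000129), while after CO2 it was not called (0.45 ± 0.37). In methionine aminopeptidase 1-like LOC100651218 the interval on Group1.5 had 3.50, 31.6, 34.0, 27.1 and 14.6 CPM in diapause queens and 1.36 to 3.83 in founders post diapause. Its interval of 332 bases on GroupUn422 had 2.17 to 4.86 and 4.23 to 11.8 CPM and was called higher in founders of both routes, after CO2 where 21.4% of intervals were called (1.77 ± 0.40 and 1.81 ± 0.40, edgeR adjusted p = 0.000718 and 0.00345). Whether the scattered intervals belong to 1 gene was not tested.

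**Figure D5:**
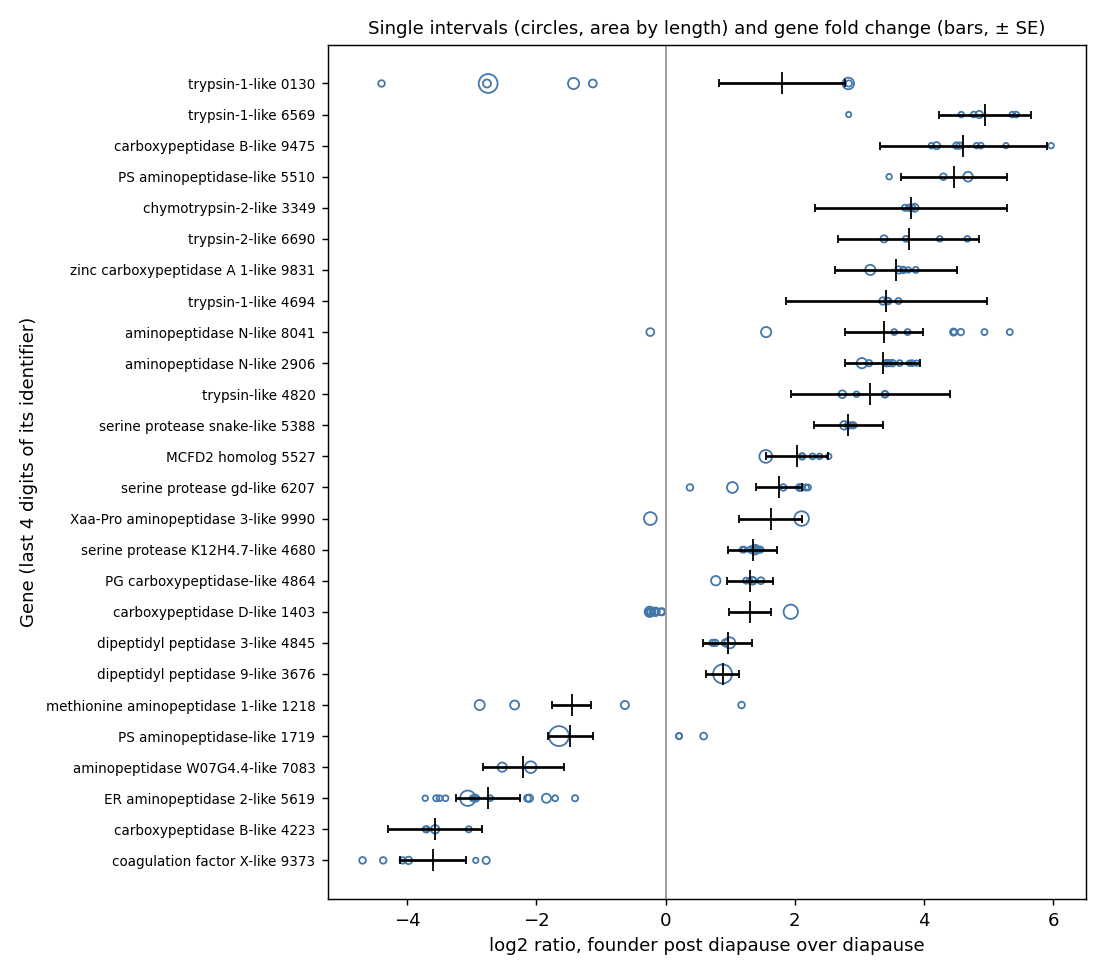
Log2 ratio of mean CPM, founders post diapause over diapause, for each interval with at least 20 counts (circles, area by length), beside the gene's log2 difference (bars, ± SE), for the 25 called members and trypsin-1-like LOC100650130. Most circles lie beside their bar, but the 9 shorter intervals of carboxypeptidase D-like lie near 0, and those of trypsin-1-like LOC100650130 lie on both sides of 0.

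Inhibitors that restrain such enzymes were mostly higher in founders post diapause. Of 10 genes of a protease inhibitor list, mostly serpins and also holding a receptor-associated protein caught by its name, 7 were called higher and 2 lower in founders post diapause than in diapause queens, with a median log2 difference of 2.32. After CO2 it was 3 higher and 0 lower. Their summed level was 32821 to 168816 CPM in founders post diapause and 13284 to 24134 CPM in diapause queens. It was 3320 to 54451 CPM in mated queens, 2380 to 13826.5 in CO2-treated queens and 4271 to 47220 in founders post CO2. Of 13 genes of a list for immune recognition and the Toll pathway, 3 were called higher and 7 lower after diapause (median -1.96), and 0 higher and 3 lower after CO2. That list also holds tuberin-like LOC100645475, a regulator of TOR signalling, and tectonin beta-propeller repeat-containing protein-like LOC100649136, both caught by parts of their names. Of 17 genes of a lysosome list, 9 were called higher and 4 lower after diapause (median 0.94), but it also caught mannosidases of the endoplasmic reticulum and Golgi by name. The lists were chosen by product name. The counts after diapause stand beside 40.2% of all genes called higher and 40.6% lower, and those after CO2 beside 14.8% higher and 13.6% lower.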

How the data were processed

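RNA of 25 single queens was sequenced from polyA-selected libraries. The deposited table gives raw counts per genomic interval, and per the submitters' processing notes DESeq, TopHat and Trimmomatic were among the tools. The sources used here do not give the genome build, counter, strand setting or the rule by which intervals were chosen. The table covers part of the transcriptome, so its totals are not sequencing depth.

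Counts of the 22679 deposited intervals were summed per gene identifier. edgeR 4.0.16 in R 4.3.3 fitted all 25 libraries with a term per group (TMM, quasi-likelihood test, 20 residual degrees of freedom, genes with low counts removed at a minimum count of 10 and total of 15) and adjusted p over 3793 genes by Benjamini-Hochberg. The biological coefficient of variation was 51.4%. CPM are counts relative to the TMM-scaled library total. Fits and the calling step were tested on simulated data. Alternatives were DESeq2 1.42.0, RLE size factors, no filter, genetic line as a block, only the groups compared, libraries left out, and, chosen after seeing the data, main scaffolds only and single intervals. Figures used matplotlib 3.10.9.

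Genetic line paired the queens by their labels. It was not in the main fit and served as a block in an alternative fit only. Line 426 occurred in Mated 5 alone, so with the block that queen adds nothing to comparisons with mated queens. The block also leaves fewer degrees of freedom. Deviations of same-line queens had a median correlation of 0.0648 over 46 pairs (21 over 0.1), and different-line queens -0.0159 over 204 pairs. Members and lists were chosen with earlier results of these data known. The genes described in full were those with the smallest p over all groups and the highest of each class, all called members where at most 12 were called and otherwise those with the smallest p, and further members to account for the set. Of the 33 members, 31 were in the RefSeq name table. The labels used here name no sequencing batch.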

Additional observations from a re-analysis of the deposited data

Results flagged for a closer look

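Single queens far from the rest of their group were looked for in 85 groups of 5 queens over 17 members, and 11 were found. The rule was a gap to the nearest queen over the group's range above 0.71, both taken on log2 CPM. Chance alone gives about 1 in 20 groups.

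Diapause 1 stood apart in 3 members. Its level was 5.24 CPM for coagulation factor X-like LOC100649373, against 43.8 to 88.4 in the other diapause queens. It was 387 CPM for zinc carboxypeptidase A 1-like LOC100649831 (others 23.9 to 45.4) and 832 CPM for serine protease snake-like LOC100645388 (others 81.0 to 153). Founder post diapause 1 stood apart in 3 members as well. Over all tested genes it was the highest of its group in 31.9% and the lowest in 43.6%. It had 32.4 CPM of aminopeptidase N-like LOC100642906 (others 387 to 964), 494 CPM of dipeptidyl peptidase 9-like LOC100643676 (others 269 to 305) and 2775 CPM of carboxypeptidase D-like LOC100651403 (others 1062 to 1341).

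In the snake-like gene LOC100645388, Mated 1 had 808 CPM (others 614 to 657) and Founder post CO2 3 had 3109 CPM (others 1084 to 1305). CO2-treated 4 had 12.4 CPM of trypsin-1-like LOC100646569 (others 20.3 to 22.7). Founder post CO2 1 had 169 CPM of puromycin-sensitive aminopeptidase-like LOC100651719 (others 548 to 845). CO2-treated 3, a shallow library, had 116 CPM of dipeptidyl peptidase 3-like LOC100644845 (others 307 to 411).

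The change to founder differed between routes for coagulation factor X-like LOC100649373, by -3.95 ± 0.69 on the log2 scale (edgeR adjusted p = 0.00717).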

How the results depend on the processing

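Counts of called members depended mostly on Diapause 1. With 1 library left out in turn, they were 1 to 9 between diapause and mated queens, 1 to 15 between diapause and CO2-treated queens, 20 to 28 between founders post diapause and diapause queens, 7 to 12 between founders post CO2 and CO2-treated queens, 18 to 23 and 9 to 16 between founders post diapause or post CO2 and mated queens, 1 to 9 for the difference between routes and 21 to 27 for any difference among groups. They were 0 to 0 between CO2-treated and mated queens and between the founders. Diapause against mated queens gave 9 members without Diapause 1, 5 without Mated 2, and 1 without Diapause 2, 3 or 4 or Mated 4. Diapause against CO2-treated queens gave 15 without Diapause 1 and 1 without CO2-treated 1, 2, 4 or 5, Diapause 2, 3, 4 or 5, Founder post CO2 5, Founder post diapause 5 or Mated 4.

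With genetic line as a replicate block, 0 members were called between diapause and mated queens and 1 between diapause and CO2-treated queens, where calls over all genes went from 216 to 51 and from 244 to 130. Without the 2 shallow libraries it was 5 of 319 and 4 of 305 genes called, and without Diapause 1 too 11 of 1192 and 16 of 1383. Fitting only the groups compared gave 1 and 1, and 6 for founders post CO2 against CO2-treated queens. Fitting only those groups called 102, 24 and 378 genes in all. Between diapause and CO2-treated queens DESeq2 called 5 members of 509 genes called, and no filter left 1 of 143. The difference between routes was called for 3 members of 484 genes by DESeq2, 2 of 133 with RLE size factors, 3 of 246 without the shallow libraries and 14 of 1388 without Diapause 1 too. On Group10.4 alone, which holds 16.2% of its counts, trypsin-1-like LOC100650130 had the opposite direction: -2.73 from diapause to founder, and -2.67 and -2.84 in founders post diapause and post CO2 against mated queens. The shallow libraries limit precision for low genes, and the causes were not tested.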
